A study of Mus musculus with 12 samples.

Results

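Fatty acid binding proteins are small carriers of the cytosol, and 5 of their genes (Fabp1, Fabp2, Fabp4, Fabp5 and Fabp7) were followed across mouse livers that differed in injection and in diet. A probe set was taken for one of these genes where the platform annotation named that gene alone. Every such probe set of Fabp5 was kept, and for the other genes the one with the highest mean over 12 arrays, which gave 8 probe sets of the 41345 on the array and 5 of the 22180 genes tested. Fabp5 had 4 such probe sets and each of the others 1, so the choice by mean level decided nothing among the members. The genes themselves were selected on earlier results of these arrays, so their levels and the tests given with them describe these livers and add no independent support. Levels are the deposited RMA values on the log2 scale, so a difference of 1 is a doubling.

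The livers came from male C57Bl/6N mice aged 2 months, all of them carrying floxed p53 alleles (Trp53tm1Brn). Mice were injected through the tail vein with adenovirus expressing Cre recombinase, which deletes the floxed part of p53 in the cells it enters, or with the same titre of adenovirus expressing GFP, and diet began 3 days later. The groups were Adeno-Cre fasted for 24 h, Adeno-Cre fed freely, Adeno-GFP fasted for 24 h and Adeno-GFP fed freely, with 3 arrays in each. Every mouse therefore received virus, deletion depends on which liver cells the virus reached, and the injections differ in the viral cargo as well as in p53. Nothing in the labels says more about the arrays of a group than that they are numbered samples, so the p-values rest on the spread among numbered samples, which may be technical. The deleted gene, Trp53, was not used here to check the labels, since the annotation gives it no probe set of its own.

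The array medians lay between 6.26 and 6.33, and the pairwise correlation within groups was 0.991 to 0.994. The tissue label was checked against 11 measured hepatocyte markers, whose mean level per array was 11.81 to 11.84 in Adeno-Cre fasted, 11.65 to 11.80 in Adeno-Cre fed, 11.86 to 11.97 in Adeno-GFP fasted and 11.76 to 11.82 in Adeno-GFP fed livers. All 8 enterocyte markers had a mean under the median of all values (6.29).

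Each of these proteins holds a fatty acid inside a small barrel of beta strands and carries it between membranes, enzymes and the nucleus, where some pass ligands to the PPAR nuclear receptors. Fabp1 is the abundant form of hepatocytes and a known target of PPARA, the receptor that switches on fat burning in the fasted liver. Fabp2 is the form of the intestinal lining, Fabp4 that of fat cells, macrophages and capillary endothelium, Fabp5 that of skin and of several immune and endothelial cells, and Fabp7 that of the developing brain.

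The region around the start of Fabp1 is shown because it holds the letters of a DR1 element. That is the kind of paired half-site that PPARA binds with its partner RXR. The region of Fabp2 is shown beside it because the small fasting differences of these genes had opposite signs. Neither gene passed the test after either injection, and a link between these letters and the differences was not tested. The sequences are from RefSeq, build GRCm38.p6, from 250 bases before to 50 after the start, on the plus strand. Fabp1 spans chr6:71199629-71199928 and Fabp2 chr3:122894822-122895121, and capitals mark the DR1 match.
Fabp1: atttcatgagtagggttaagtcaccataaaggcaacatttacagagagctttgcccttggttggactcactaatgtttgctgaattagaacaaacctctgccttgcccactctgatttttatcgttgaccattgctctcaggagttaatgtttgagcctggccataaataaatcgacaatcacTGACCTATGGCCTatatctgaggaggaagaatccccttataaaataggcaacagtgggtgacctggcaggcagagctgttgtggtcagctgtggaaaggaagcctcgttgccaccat
Fabp2: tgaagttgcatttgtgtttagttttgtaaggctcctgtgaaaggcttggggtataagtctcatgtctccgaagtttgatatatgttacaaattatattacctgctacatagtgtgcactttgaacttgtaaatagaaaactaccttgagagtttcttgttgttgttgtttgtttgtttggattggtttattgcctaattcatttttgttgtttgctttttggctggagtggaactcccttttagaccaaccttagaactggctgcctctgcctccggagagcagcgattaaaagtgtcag
The DR1 motif searched was AGGNCANAGGNCA on both strands, and 0.381% of 32851 RefSeq promoter windows of this length held it. In Fabp1 it lies on the strand opposite to the gene, from -67 to -55 relative to the start. Its first letters, TGACCT, are also a match to the single half-site AGGTCA, which was found in 16.3% of windows and again in Fabp1 from -9 to -4. No match to DR1 or to the half-site lies in the Fabp2 window, which says only that these letters are not there. Of the members, 3 had a window (Fabp1, Fabp2 and Fabp7). The Fabp7 window held the half-site from -171 to -166 and no DR1 match.

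The first question was what fasting did to these genes. Only Fabp5 among the 5 passed the test, and it fell strongly after either injection. Its probe set with the highest mean (17548238) read 6.46, 6.43 and 6.01 in Adeno-Cre fasted livers, against 9.16, 8.71 and 9.10 in Adeno-Cre fed livers. In Adeno-GFP fasted livers it read 6.05, 6.61 and 6.49, against 9.72, 9.46 and 10.07 in Adeno-GFP fed livers. Every fasted liver lay more than 2 log2 units under every fed liver.

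Fabp5 averaged 6.30 ± 0.25 in Adeno-Cre fasted livers and 8.99 ± 0.24 in Adeno-Cre fed livers (SD, n = 3 each), a difference of -2.69 (SE 0.19, limma adjusted p = 5.07e-05), or 6.45-fold lower. After Adeno-GFP it averaged 6.38 ± 0.29 in fasted livers and 9.75 ± 0.31 in fed livers (SD, n = 3 each), a difference of -3.37 (SE 0.19, limma adjusted p = 5.55e-06), or 10.3-fold lower. Ordered by fitted difference, this was fall number 4 of 22180 genes after Adeno-Cre and fall number 2 after Adeno-GFP. The gene with the larger fall in both was Hsd3b5, a steroid dehydrogenase of male mouse liver (-5.14 after Adeno-Cre and -4.59 after Adeno-GFP), named here after its values were seen. Of the 5 members, 1 fell and 0 rose in each of these comparisons, where 1.17% of all genes fell after Adeno-Cre and 1.87% after Adeno-GFP (2.67% and 3.07% in either direction). Averaged over injections, Fabp5 fell by 3.03 (SE 0.14, limma adjusted p = 3.2e-07), where 8.34% of genes passed. The fasted levels lie close to the array medians, and since the files give no detection call they are not shown to be above background, so the true size of the fall is uncertain.

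**Figure D1:**
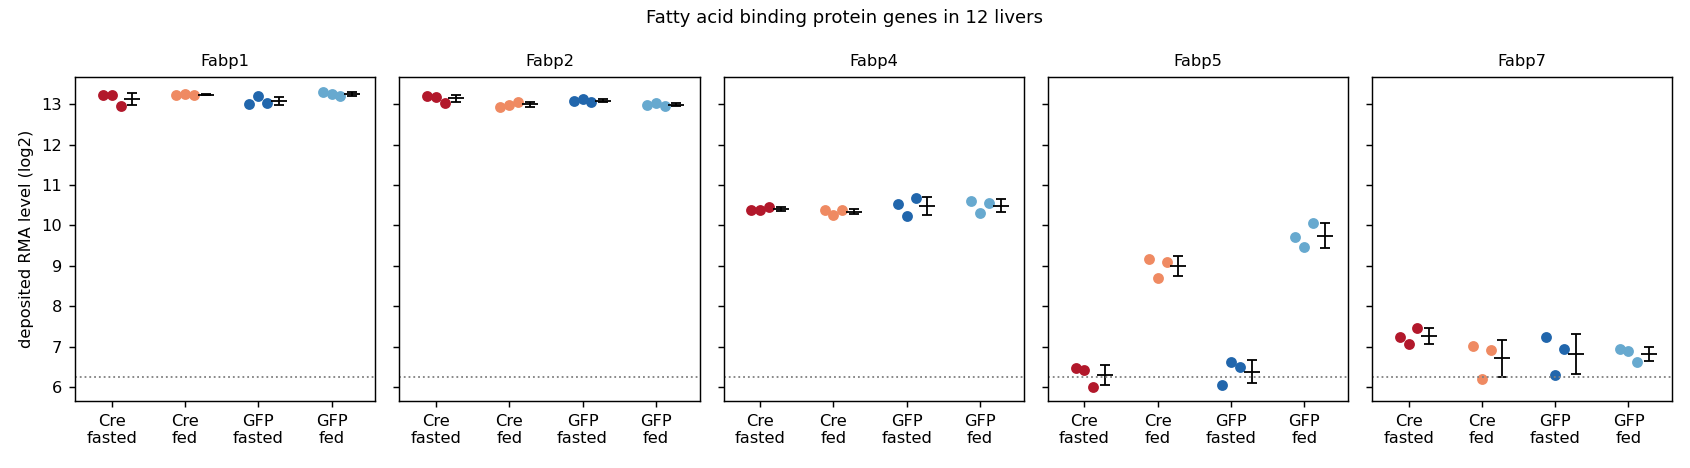
Deposited RMA level (log2) of each gene in every liver: points are arrays, the bar beside them is the mean with SD (n = 3), and the dotted line is the lowest array median (6.26). Fabp5 sits between 6.01 and 6.61 in the 6 fasted livers and between 8.71 and 10.07 in the 6 fed livers, while Fabp1, Fabp2 and Fabp4 stay within 0.44 over all 12 arrays and Fabp7 within 1.28.

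The other 3 probe sets of Fabp5 gave the same picture with different sizes. Probe set 17548717 correlated at 0.9999 with 17548238 over the 12 arrays and lay 0.06 to 0.15 below it on each. Whether these share probes was not analysed here, and they are not counted as separate support. Probe set 17396056 averaged 5.86 ± 0.20 in Adeno-Cre fasted and 7.57 ± 0.17 in Adeno-Cre fed livers, and 5.93 ± 0.11 in Adeno-GFP fasted against 8.37 ± 0.39 in Adeno-GFP fed livers (SD, n = 3 each). Probe set 17404073 averaged 5.40 ± 0.27 in Adeno-Cre fasted and 7.88 ± 0.19 in Adeno-Cre fed livers, and 5.19 ± 0.23 in Adeno-GFP fasted against 8.69 ± 0.43 in Adeno-GFP fed livers (SD, n = 3 each). For both of these, all 6 fasted arrays lay under the lowest array median.

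In a fit over all 41345 probe sets, the fasting differences after Adeno-Cre were -2.69 for 17548238, -2.70 for 17548717, -1.71 for 17396056 and -2.48 for 17404073, with limma adjusted p between 0.000574 and 0.00311, where 0.803% of probe sets passed. After Adeno-GFP they were -3.37, -3.37, -2.44 and -3.51 in the same order, with adjusted p between 6.79e-05 and 0.000224, where 0.938% passed. The fall was smallest in 17396056 after either injection, and the difference between probe sets was not tested. RefSeq lists a pseudogene of Fabp5, and what each probe set hybridises to was not analysed here.

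**Figure D2:**
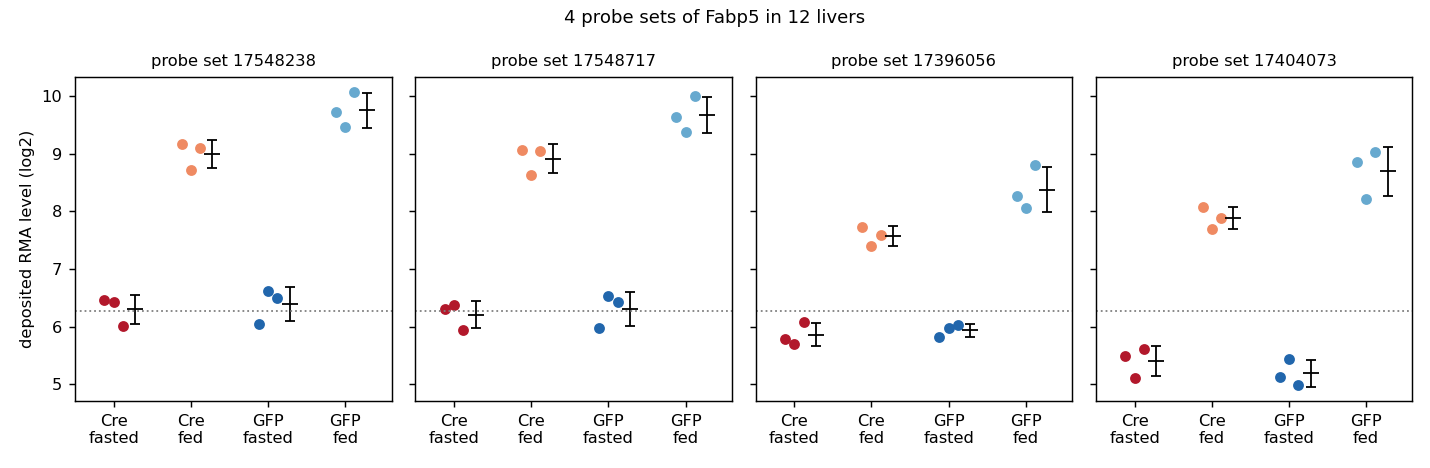
Deposited RMA level (log2) of the 4 Fabp5 probe sets in every liver, with mean and SD beside the points (n = 3) and the lowest array median (6.26) as a dotted line. In all 4 the fasted livers lie under the fed livers without overlap, and the Adeno-Cre fed livers lie under the Adeno-GFP fed livers.

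Fabp1 was lower in fasted livers by a small amount that did not pass the test. Its probe set (17459455) read 13.22, 13.22 and 12.96 in Adeno-Cre fasted livers, against 13.23, 13.25 and 13.23 in Adeno-Cre fed livers. In Adeno-GFP fasted livers the levels were 13.01, 13.19 and 13.03, against 13.30, 13.26 and 13.20 in Adeno-GFP fed livers. The groups did not overlap after either injection, which was so for 9.81% of all genes in that direction after Adeno-Cre and for 11.1% after Adeno-GFP. The difference was -0.10 after Adeno-Cre (95% interval -0.29 to 0.08, limma adjusted p = 0.611) and -0.18 after Adeno-GFP (-0.36 to 0.01, adjusted p = 0.329). The brightest probe set of each array read 13.75 to 13.96, so Fabp1 was measured near the top of the scale, where differences can be compressed. How far that touches this difference was not tested.

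Fabp2 was slightly higher in fasted livers, again without passing. Levels of probe set 17402350 were 13.20, 13.18 and 13.04 in Adeno-Cre fasted livers, against 12.93, 12.99 and 13.06 in Adeno-Cre fed livers, and these overlap. In Adeno-GFP livers they were 13.09, 13.13 and 13.05 when fasted, against 12.97, 13.03 and 12.96 when fed, without overlap, as for 11.1% of all genes in that direction. The differences were 0.15 (95% interval -0.01 to 0.30, limma adjusted p = 0.35) after Adeno-Cre and 0.10 (-0.05 to 0.26, adjusted p = 0.538) after Adeno-GFP. Averaged over injections, the difference was 0.12 (SE 0.05, adjusted p = 0.171) for Fabp2 and -0.14 (SE 0.06, adjusted p = 0.195) for Fabp1. With a trended and robust variance prior, Fabp2 passed in this average (adjusted p = 0.0274). Of 8 enterocyte markers, all dim, 0 passed with fasting after either injection, where 2.67% of all genes passed after Adeno-Cre and 3.07% after Adeno-GFP. Their mean level per array was 5.48 to 5.58 in Adeno-Cre fasted, 5.47 to 5.58 in Adeno-Cre fed, 5.53 to 5.61 in Adeno-GFP fasted and 5.49 to 5.52 in Adeno-GFP fed livers. For these markers, the lowest fasted array was at 5.528 and the highest fed array at 5.523 after Adeno-GFP, and the groups overlapped after Adeno-Cre. The part of these cells in the Fabp2 values was not tested.

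Fabp4 showed no fasting difference beyond its spread. The probe set (17404091) read 10.38, 10.39 and 10.46 in Adeno-Cre fasted livers, against 10.38, 10.26 and 10.38 in Adeno-Cre fed livers. It read 10.54, 10.23 and 10.67 in Adeno-GFP fasted livers, against 10.60, 10.30 and 10.56 in Adeno-GFP fed livers, and groups overlapped after both injections. The difference was 0.07 (95% interval -0.17 to 0.32, limma adjusted p = 0.819) after Adeno-Cre and -0.0046 (-0.25 to 0.24, adjusted p = 0.99) after Adeno-GFP. Adipoq, the adipokine gene that defines fat cells, averaged 5.84 in Adeno-Cre fasted, 5.90 in Adeno-Cre fed, 5.89 in Adeno-GFP fasted and 5.82 in Adeno-GFP fed livers, all under the array medians. It is 1 of 6 measured fat cell markers, of which 2 had a mean under the median of all values. The mean level of the 6 per array was 7.12 to 7.20 in Adeno-Cre fasted, 7.20 to 7.30 in Adeno-Cre fed, 7.12 to 7.30 in Adeno-GFP fasted and 7.22 to 7.39 in Adeno-GFP fed livers. Another of the 6, Car3, a carbonic anhydrase also abundant in liver, had group means of 12.20 to 12.85 and so raised the mean of the list. Plin1, Lep, Retn and Lipe had group means of 5.25 to 6.80. Car3 fell with fasting by 0.59 after Adeno-Cre (limma adjusted p = 0.00604) and by 0.62 after Adeno-GFP (adjusted p = 0.00395). The part of fat cells in the Fabp4 values was not tested.

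Fabp7 had the widest spread within groups of the members, with an SD of up to 0.49 (n = 3). Its probe set (17233384) read 7.23, 7.07 and 7.47 in Adeno-Cre fasted livers, against 7.02, 6.19 and 6.92 in Adeno-Cre fed livers. In Adeno-GFP livers the levels were 7.25, 6.29 and 6.93 when fasted, against 6.93, 6.89 and 6.62 when fed. The groups stood apart after Adeno-Cre, as for 11.3% of all genes in that direction, and overlapped after Adeno-GFP. The difference was 0.55 (95% interval 0.02 to 1.08, limma adjusted p = 0.296) after Adeno-Cre and 0.01 (-0.52 to 0.54, adjusted p = 0.993) after Adeno-GFP. The array numbered 2 was the lowest of its group in 3 of 4 groups for Fabp7, and also in 3 of 4 for Fabp4. It was so as well for Fabp5 probe sets 17396056 and 17404073. For Fabp5 probe sets 17548238 and 17548717 it was the lowest in 2 of 4 groups, and for Fabp1 and Fabp2 in 0.

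**Figure D3:**
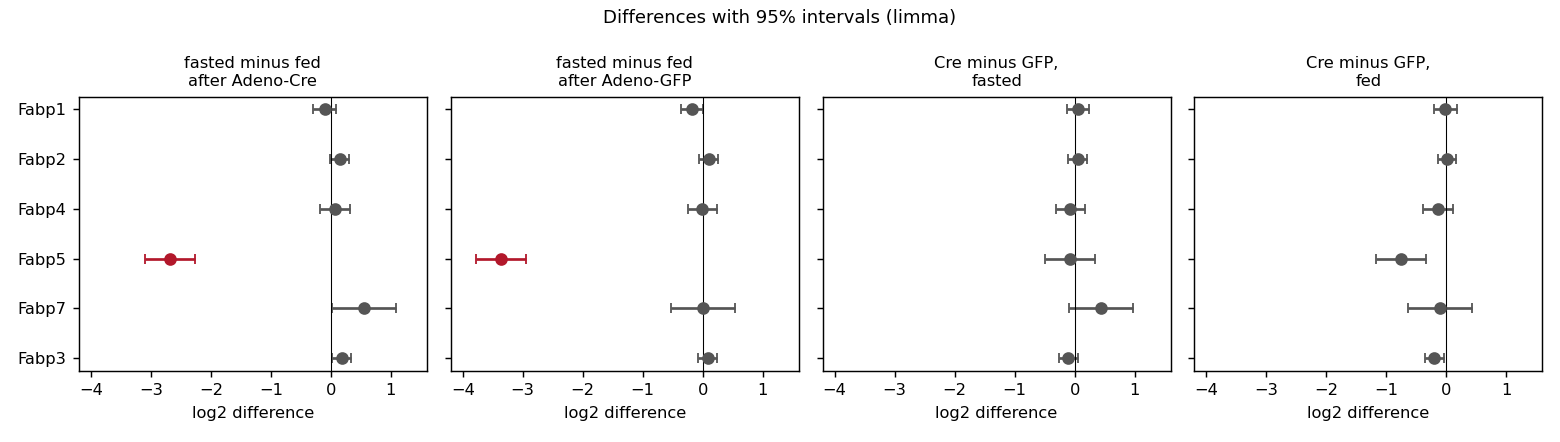
Fitted log2 differences with 95% intervals from limma for the 5 genes and for Fabp3, the heart form of the family, in the 4 comparisons; red marks an adjusted p under 0.05. Fabp5 is the only red point, at -2.69 after Adeno-Cre and -3.37 after Adeno-GFP, and its interval in fed mice (-1.18 to -0.34) lies under 0 without passing the threshold.

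The injections were compared next, within each diet. None of the 5 passed in fasted mice, in fed mice or averaged over diets, where 2.75%, 1.49% and 5.59% of all genes passed by limma (at an unadjusted p under 0.05, 3711, 2742 and 4333 genes of all kinds did). Fabp5 came closest, in fed mice, with 9.16, 8.71 and 9.10 in Adeno-Cre fed livers against 9.72, 9.46 and 10.07 in Adeno-GFP fed livers. All 3 Adeno-Cre livers lay under all 3 Adeno-GFP livers, as for 11.5% of genes in that direction. The difference was -0.76 (SE 0.19, 95% interval -1.18 to -0.34, limma adjusted p = 0.081), a level 1.69-fold lower. Ordered by size it was fall number 19 of 22180.

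All 4 Fabp5 probe sets had the Adeno-Cre fed livers under the Adeno-GFP fed livers without overlap, with differences of -0.76, -0.76, -0.80 and -0.81 and adjusted p between 0.111 and 0.194 in the fit over all probe sets, where 0.22% of probe sets passed. Fabp5 passed with dim genes left out (adjusted p = 0.0445) and with the probe sets of a gene averaged (-0.78, adjusted p = 0.0362). Leaving out each array in turn gave -0.91 to -0.60 with adjusted p between 0.0576 and 0.276. Averaged over diets, the difference was -0.42 (SE 0.14, adjusted p = 0.101).

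In fasted mice the Fabp5 levels of the 2 injections overlapped, and the difference was -0.08 (95% interval -0.50 to 0.33, limma adjusted p = 0.867). Probe set 17404073 had a difference of 0.21 there and the other 3 of -0.10 to -0.07. The order of the Fabp5 means was therefore Adeno-GFP fed, Adeno-Cre fed, then both fasted groups, which did not differ beyond their spread. The fasted means, 6.30 after Adeno-Cre and 6.38 after Adeno-GFP, lie close to the array medians (6.26 to 6.33). With levels that low and no detection call, a difference between injections in fasted livers could go unseen. The values therefore cannot decide whether there was one. The fitted fall with fasting was smaller after Adeno-Cre by 0.68 (SE 0.27, 95% interval 0.09 to 1.27). This interaction did not pass (limma adjusted p = 0.64), where 0.00451% of genes, or 1 gene, passed and 1676 had an unadjusted p under 0.05. It sets the fasted difference of -0.08 against the fed difference of -0.76. With fasted levels near the array medians, it largely repeats the fed difference and is not a separate result. The interaction was 0.66 to 1.03 over the 4 probe sets, with adjusted p of 0.675 to 0.75, where 0% of probe sets passed. These comparisons share arrays, since the Adeno-Cre fed livers enter the injection comparison and one of the fasting comparisons.

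For the remaining members the Adeno-Cre differences were small. Those of Fabp1 were 0.06 in fasted mice (95% interval -0.13 to 0.24) and -0.02 in fed mice (-0.20 to 0.17). Those of Fabp2 were 0.05 (-0.10 to 0.21) and 0.01 (-0.15 to 0.16), and those of Fabp4 -0.07 (-0.31 to 0.18) and -0.14 (-0.39 to 0.10). Fabp7 had 0.44 in fasted mice (-0.10 to 0.97, limma adjusted p = 0.399) and -0.11 in fed mice (-0.64 to 0.42). For Fabp1 and Fabp2 the intervals hold no change of 0.25 or more in either direction, and for Fabp7 they are wide enough to hold a change near 1.

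Markers of the cell types that can carry Fabp4, Fabp5 or Fabp7 were read beside these values. Of 14 Kupffer cell and macrophage markers, 0 passed with fasting after either injection, where 2.67% of all genes passed after Adeno-Cre and 3.07% after Adeno-GFP. Their median difference was -0.32 after Adeno-Cre and -0.05 after Adeno-GFP (all genes -0.00085 and 0.01). Their mean level per array was 7.48 to 7.95 in Adeno-Cre fasted, 7.75 to 8.22 in Adeno-Cre fed, 7.89 to 8.38 in Adeno-GFP fasted and 8.06 to 8.12 in Adeno-GFP fed livers. Of 14 markers of sinusoidal endothelium, 0 passed beside the same shares, with medians of 0.04 after Adeno-Cre and -0.30 after Adeno-GFP. Their mean level per array was 8.23 to 8.39 in Adeno-Cre fasted, 7.99 to 8.50 in Adeno-Cre fed, 8.15 to 8.53 in Adeno-GFP fasted and 8.56 to 8.61 in Adeno-GFP fed livers. For this list the fasted livers lay under the fed livers without overlap after Adeno-GFP and overlapped them after Adeno-Cre. Averaged over injections, 2 of 14 macrophage markers and 1 of 14 endothelial markers fell, where 4.32% of all genes fell. With Adeno-Cre in fed mice, where Fabp5 was at -0.76, 0 of either list passed, where 1.49% of all genes passed. The macrophage markers had a median of -0.0017 (-0.37 to 0.12), and their levels per array overlapped. All 14 endothelial markers were lower, with a median of -0.30 (-0.48 to -0.11). Their mean level per array was lower in Adeno-Cre fed than in Adeno-GFP fed livers without overlap. Of 12 stellate cell markers, 3 fell with fasting after Adeno-Cre and 2 after Adeno-GFP, where 1.17% and 1.87% of all genes fell. These were Col3a1, Col1a2 and Lrat after Adeno-Cre, and Lrat and Col1a2 after Adeno-GFP. The list mean per array was 7.556 to 7.804 in Adeno-Cre fasted and 7.846 to 7.954 in Adeno-Cre fed livers. It was 7.907 to 8.003 in Adeno-GFP fasted and 8.098 to 8.104 in Adeno-GFP fed livers. Fasted livers lay under fed livers without overlap after both injections, and Adeno-Cre under Adeno-GFP livers in both diets. With Adeno-Cre, 0 of 12 passed in either diet. Of 11 measured lymphocyte markers, 7 had a mean under the median of all values. Their mean level per array was 6.09 to 6.23 in Adeno-Cre fasted and 6.33 to 6.45 in Adeno-Cre fed livers, without overlap, and 6.24 to 6.28 in Adeno-GFP fasted against 6.25 to 6.38 in Adeno-GFP fed livers, with overlap. One of the 11, Ptprc, the CD45 gene of white blood cells, fell with fasting by 0.56 after Adeno-Cre (limma adjusted p = 0.0211) and had a difference of -0.32 after Adeno-GFP (adjusted p = 0.166). The part of these cells in the Fabp5 values was not tested. In whole liver, fewer cells of a type and less RNA per cell cannot be told apart.

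Of 11 measured genes of dividing cells, 5 fell and 0 rose with fasting after Adeno-GFP (median -1.03). After Adeno-Cre, 0 of 11 passed (median -0.26). Their mean level per array was 8.48 to 8.87 in Adeno-Cre fasted, 8.86 to 8.91 in Adeno-Cre fed, 6.45 to 7.27 in Adeno-GFP fasted and 7.44 to 8.08 in Adeno-GFP fed livers. Of all genes, 1.87% fell with fasting after Adeno-GFP, and 2.67% passed in either direction after Adeno-Cre. Tested as an interaction, 0 of 11 dividing-cell genes passed, where 0.00451% of all genes, or 1 gene, passed. With so few passing anywhere, that count cannot decide whether their fasting difference depended on the injection. All 11 interaction values were above 0 (0.23 to 1.04, median 0.80). Fabp5 fell by 2.69 in the Adeno-Cre livers, in which none of the 11 passed. With Adeno-Cre the dividing-cell genes were higher in both diets (11 of 11 rose in fasted and 7 of 11 in fed mice), while Fabp5 was at -0.08 and -0.76. Of all genes, 2.26% rose with Adeno-Cre in fasted mice and 1.08% in fed mice. The part of dividing cells in the Fabp5 values was not tested.

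The rest of the family did not pass in any of these comparisons. Fabp3, the heart and muscle form (probe set 17419215), read 9.46, 9.41 and 9.46 in Adeno-Cre fasted livers, against 9.35, 9.20 and 9.23 in Adeno-Cre fed livers. It read 9.48, 9.52 and 9.64 in Adeno-GFP fasted livers, against 9.48, 9.43 and 9.48 in Adeno-GFP fed livers. Before rounding, the fasted livers lay above the fed ones without overlap after both injections, as for 11.3% of all genes in that direction after Adeno-Cre and 11.1% after Adeno-GFP. The Adeno-Cre livers lay under the Adeno-GFP livers without overlap in both diets, as for 10.9% of genes in fasted and 11.5% in fed mice. The fasting difference was 0.18 (SE 0.07, limma adjusted p = 0.235) after Adeno-Cre and 0.09 (adjusted p = 0.62) after Adeno-GFP, and the Adeno-Cre difference was -0.11 in fasted (adjusted p = 0.5) and -0.20 in fed mice (adjusted p = 0.247). Another Fabp3 probe set (17430628, mean 5.75) lay under the lowest array median on every array. Its groups overlapped for fasting after both injections and for injection in both diets. Fabp6, the bile acid carrier of the ileum, and Fabp9 had means of 4.71 and 4.87 over the 12 arrays, under the array medians. Fabp12 and Pmp2, a myelin protein of the same family, had means of 5.34 and 4.89, also under the array medians. With retinoid carriers, Dbi and Scp2, a list of 11 measured relatives had 0 past the threshold with fasting after either injection. Of all genes, 2.67% passed after Adeno-Cre and 3.07% after Adeno-GFP. The list medians were -0.02 after Adeno-Cre and -0.03 after Adeno-GFP (all genes -0.00085 and 0.01). Averaged over injections, Dbi, a carrier of acyl-CoA esters, fell by 0.28 with fasting (adjusted p = 0.00882). Averaged over diets, Rbp7, a retinol carrier of endothelium, rose by 0.53 with Adeno-Cre (adjusted p = 0.0302). Its group means were 6.03 in Adeno-Cre fasted, 6.05 in Adeno-Cre fed, 5.39 in Adeno-GFP fasted and 5.63 in Adeno-GFP fed livers, under the median of all values, so it is not shown to be above background.

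Many genes that break down fatty acids rose with fasting in the same livers. Over all genes, 1.5% rose after Adeno-Cre and 1.2% after Adeno-GFP. Of 25 measured genes of fatty acid oxidation and ketogenesis, 10 rose and 0 fell after Adeno-Cre (median 0.33) and 13 rose and 0 fell after Adeno-GFP (median 0.34). After Adeno-Cre these included Ehhadh, of the peroxisomal pathway (1.19), Slc25a20, the carnitine carrier of mitochondria (0.53), Cpt1a, which makes the acylcarnitine that enters them (0.41), Hadha (0.36) and Acadvl (0.33). After Adeno-GFP they included Crat (0.74), Acadm, the medium-chain dehydrogenase (0.53), Cpt1a (0.46), Ehhadh (1.16) and Hadhb (0.64).

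Of 28 PPAR receptors, partners and other targets, 9 rose and 1 fell after Adeno-Cre (median 0.38) and 12 rose and 1 fell after Adeno-GFP (median 0.38). Of all genes, 1.5% rose and 1.17% fell after Adeno-Cre, and 1.2% rose and 1.87% fell after Adeno-GFP. Cyp4a14, a fatty acid hydroxylase, rose by 2.07 after Adeno-Cre and by 1.77 after Adeno-GFP, and Cyp4a31 by 1.40 and 2.15. The thioesterase genes Acot1 (0.80 and 1.13) and Acot2 (0.72 and 0.68) rose as well, and Hnf4a, a hepatocyte transcription factor, rose by 0.60 after Adeno-GFP. Pparg, the PPAR of fat cells, fell by 0.80 after Adeno-Cre and by 0.69 after Adeno-GFP. Fabp1, whose promoter window holds the DR1 letters shown above, had differences of -0.10 and -0.18 in the same livers.

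In the list of triglyceride synthesis and export, 2 rose and 2 fell of 16 after Adeno-Cre (median -0.16), and 1 rose and 5 fell after Adeno-GFP (median -0.09). The shares over all genes were 1.5% rising and 1.17% falling after Adeno-Cre, and 1.2% rising and 1.87% falling after Adeno-GFP. Scd1, which makes monounsaturated fatty acids, fell by 0.80 after Adeno-Cre and by 1.09 after Adeno-GFP, and Fasn, fatty acid synthase, by 0.74 and 1.65. Srebf1, the transcription factor of lipogenesis, fell by 1.01 and Acaca by 0.99 after Adeno-GFP. Dgat1, an enzyme of the last step of triglyceride synthesis, rose by 0.55 after Adeno-Cre and by 0.44 after Adeno-GFP, and Tm6sf2 rose by 0.50 after Adeno-Cre. Of 17 genes of uptake and activation, Vldlr (1.12) and Cd36 (0.52), both of which bring in lipid, rose and Acsm1 (-0.53) fell after Adeno-Cre. After Adeno-GFP, Slc27a1 (0.56) rose, and Acss2 (-0.66) and Acsm1 (-0.51) fell. Vldlr averaged 6.17 in Adeno-Cre fed livers and Slc27a1 6.245 in Adeno-GFP fed livers, under the lowest array median (6.26). These fed levels are not shown to be above background, so the true size of the 2 rises is uncertain.

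**Figure D4:**
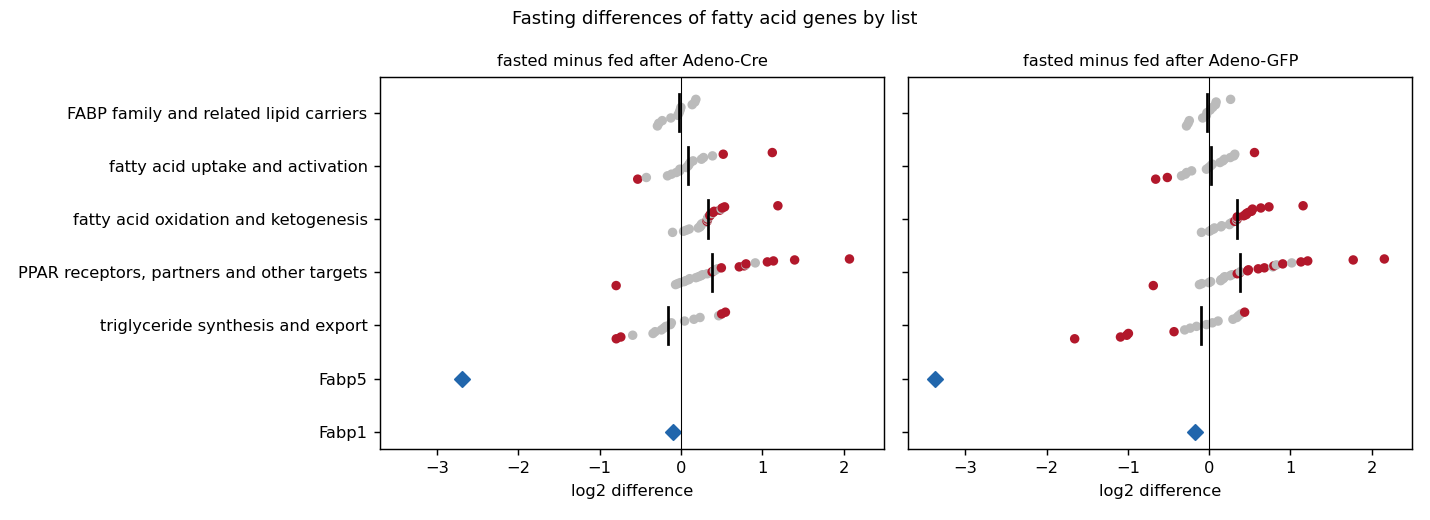
Fasted minus fed log2 differences of the measured genes of 5 lists after Adeno-Cre (left) and Adeno-GFP (right): red points passed an adjusted p of 0.05, grey ones did not, black bars are list medians, and blue diamonds are Fabp5 and Fabp1. The oxidation and PPAR lists have medians of 0.33 to 0.38, while Fabp5 lies at -2.69 and -3.37, to the left of every gene shown.

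With Adeno-Cre, single genes of these 5 lists passed within a diet, where 2.75% of all genes passed in fasted and 1.49% in fed mice. In fasted mice it was Lpl, which frees fatty acids from lipoproteins (0.74). In fed mice Crat rose by 0.44 and Srebf1 fell by 0.53. Lpl was 1 of 17 measured genes of its list, Crat 1 of 25 and Srebf1 1 of 16. The remaining lists, of 11 and 28 measured genes, had 0 in either diet. Such low counts are not read as a result about these lists.

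The genes most like each member over the 12 arrays were looked up among 12377 genes with a mean of at least 6.29, as a description, since arrays of a group share their condition. Fabp5 was most like Scd1 (Pearson r = 0.98), Nsdhl, an enzyme of cholesterol synthesis (0.97), and Ccser2 (0.97). Nsdhl averaged 9.61 ± 0.11 in Adeno-Cre fasted and 11.03 ± 0.01 in Adeno-Cre fed livers, and 9.66 ± 0.13 in Adeno-GFP fasted against 11.20 ± 0.07 in Adeno-GFP fed livers (SD, n = 3 each). Scd1 averaged 11.63 ± 0.18 in Adeno-Cre fasted and 12.42 ± 0.11 in Adeno-Cre fed livers, and 11.66 ± 0.24 in Adeno-GFP fasted against 12.75 ± 0.03 in Adeno-GFP fed livers (SD, n = 3 each). Once the group means were subtracted, the r of Fabp5 was 0.59 with Scd1, -0.40 with Nsdhl and 0.50 with Ccser2, so the likeness lies mostly between the groups.

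For the other members, the r of the genes named was 0.79 to 0.97 once the group means were subtracted. These genes were picked for the highest r among 12377, and the spread within groups enters that r. A high value after subtraction is therefore partly a result of the choice and adds no separate support. Fabp1 was most like Ugt2b5 (r = 0.95, and 0.97 after subtracting the group means), Necap1 (0.94 and 0.90) and Ndfip1 (0.93 and 0.88). Ugt2b5 is a glucuronosyltransferase of liver. Fabp2 was most like Riok3 (0.96 and 0.97), Psmc6 (0.95 and 0.85) and Kcna4 (0.94 and 0.82). Fabp4 was most like Tmem230 (0.85 and 0.88), Unc5a (0.84 and 0.86) and Spns3 (0.84 and 0.89), and Fabp7 was most like Ptpra (0.88 and 0.88), Btrc (0.845 and 0.79) and Mtmr14 (0.84 and 0.81). Without the 2 arrays farthest from the median of Fabp7, its r with Ptpra was 0.62.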

How the data were processed

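Liver RNA was measured on 12 Affymetrix arrays, 3 for each of 4 groups taken from the labels. The authors deposited RMA values on the log2 scale, 1 per probe set; RMA is named in the submitters' processing notes, and its version is not given in the sources used. RMA equalises arrays and compresses differences of dim and very bright probe sets. The number of arrays limits the precision.

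Of 41345 probe sets, the platform annotation named 1 gene for 23521. The brightest probe set on average stood for each gene, giving 22180 genes. One limma model (version 3.58.1, in R 4.3.3) held the 4 group means, with eBayes, and Benjamini-Hochberg adjustment ran over all genes within a contrast (threshold 0.05). Fabp5 probe sets were tested in the same fit over all probe sets. The fit was tested on simulated data. Deviations from the group means correlated at -0.09 to 0.15 over 18 pairs of same-numbered arrays of different groups, 3 above 0.1. Pairs with different numbers had -0.18 to 0.13 over 36 pairs, 2 above 0.1. Same-numbered arrays were not treated as pairs, and a replicate block was run as an alternative.

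The members and lists were chosen with earlier results of these data known. Named genes were the members, the 3 most like each, and up to 5 per list and comparison with the smallest p past the threshold, leaving out predicted genes. Promoters came from a RefSeq table. Alternatives left out dim genes, normalised again, added the replicate block, fitted only the groups compared, changed the variance prior, averaged a gene's probe sets, tested every probe set, and dropped single arrays in turn. Python 3.11.15, pandas 2.3.3, numpy 2.4.6 and matplotlib 3.10.9 were used.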

Additional observations from a re-analysis of the deposited data

How the results depend on the processing

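The fall of Fabp5 with fasting passed under every alternative run: at -2.83 to -2.40 after Adeno-Cre and -3.51 to -3.17 after Adeno-GFP over 19 alternatives each, and in all 4 of its probe sets over 16 each. With Adeno-Cre in fed mice it passed in 2 of 19, so that 1 member passed, with dim genes left out and with probe sets averaged. With the trended and robust prior 2 members passed for fasting averaged over injections (Fabp2 and Fabp5). The replicate block left the calls of all members as they were (Fabp5 adjusted p = 0.000367 for fasting after Adeno-Cre and 8.73e-05 after Adeno-GFP).

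Counts of all genes that passed moved more. For fasting after Adeno-Cre (592) the count was 983 with dim genes left out, 935 with the trended and robust prior, 212 with only the groups compared, 332 over all probe sets and 207 (without Adeno-Cre fasted replicate 1) to 713 leaving out each array; for fasting after Adeno-GFP (682) it was 1095, 1038, 394, 388 and 275 (without Adeno-GFP fed replicate 2) to 720. For Adeno-Cre in fasted mice (609) it was 918, 939 and 320 in the first 3 and 355 (without Adeno-Cre fasted replicate 2) to 800 leaving out each array; in fed mice (331) it was 552, 539, 145, 91 over all probe sets and 31 (without Adeno-GFP fed replicate 3) to 362. The average over diets (1239) had 824 (without Adeno-GFP fed replicate 3) to 1353. The interaction's single call was 0 with another quantile normalization, with the replicate block and over all probe sets, and 0 or 1 leaving out each array. Fewer or more tested features change the adjustment; the other causes were not tested.

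Some differences near 0 that did not pass in their comparison changed sign. Fabp4 had 0.0010 for fasting after Adeno-GFP with another quantile normalization, and -0.10 to 0.12 leaving out each array. Leaving out each array also turned the sign of Fabp7 there (-0.21 to 0.27) and with Adeno-Cre in fed mice (-0.26 to 0.15); of Fabp4 with Adeno-Cre in fasted mice (-0.19 to 0.025), with fasting averaged (-0.014 to 0.10) and in the interaction (-0.048 to 0.17); of Fabp1 and Fabp2 with Adeno-Cre in fed mice (-0.041 to 0.0066 and -0.026 to 0.039); and of Fabp1 with Adeno-Cre averaged (-0.0014 to 0.064). Fabp5 with Adeno-Cre in fasted mice ran from -0.25 to 0.062 for probe set 17548238, -0.27 to 0.032 for 17548717 and -0.18 to 0.0057 for 17396056. Levels near the array medians, where fasted Fabp5 lies, carry no detection call, which limits the size of its fall.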
